A study of Mus musculus and Rattus norvegicus with 14 samples.

Results

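The 6 genes described here, of the creatine kinase shuttle and of oxygen storage in mouse heart, are Ckm, Ckmt2, Ckb, Slc6a8, Gatm and Mb. They were taken by gene name from the deposited mouse expression table, and all 6 of the 6 names were found among its 54532 genes. Messenger RNA was sequenced from whole heart tissue in 12 libraries, 3 in each of 4 groups: hearts whose treatment label is Sham (the control), Model, LQ-40 or SQ-3. The submitters describe both compounds as structurally similar candidates against myocardial fibrosis, the scarring of heart muscle. The labels give no strain, age, sex, procedure, dose or time, and they do not state whether the hearts labelled LQ-40 and SQ-3 also carried the model procedure. Nor do they tie the 3 libraries of each group to different animals, and p-values therefore measure the spread between these libraries, which may in part be technical.

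The creatine kinase shuttle carries high-energy phosphate from mitochondria to the sites of ATP use. Mitochondrial creatine kinase transfers phosphate from newly made ATP to creatine, phosphocreatine diffuses through the cytosol, and cytosolic creatine kinase regenerates ATP at the contractile filaments and ion pumps. Creatine is made by a short pathway whose opening enzyme is encoded by Gatm, and heart muscle takes it up from blood through a membrane transporter. Myoglobin, the oxygen-binding protein of muscle, stores oxygen and eases its movement to mitochondria. The muscle type of the cytosolic enzyme predominates in adult heart, while the brain type is widespread in other cells and in the embryonic heart.

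All coordinates here are in the mouse build mm10. Ckm (chr7:19404776-19422841, plus strand) encodes the muscle cytosolic creatine kinase, Ckb (chr12:111669361-111672338, minus strand) the brain cytosolic type, and Ckmt2 (chr13:91853387-91876885, minus strand) the sarcomeric mitochondrial enzyme. Slc6a8 (chrX:73673150-73682502, plus strand) encodes the creatine transporter. Gatm (chr2:122594467-122611303, minus strand) encodes the amidinotransferase that opens creatine synthesis, and Mb (chr15:77015487-77050670, minus strand) encodes myoglobin. Ckm, Ckmt2 and Mb overlap other annotated genes on the opposite strand, and the highest deposited FPKM of any overlapping gene was 0.269 at Ckm, 7.14 at Ckmt2 and 0.958 at Mb. Ckb, Slc6a8 and Gatm overlapped no other gene of the table.

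The 250 bases before the RefSeq start site (build GRCm38.p6) are shown for the 3 genes whose levels differed most between Model and Sham, Ckmt2 and Mb as genes that fell and Ckb as the gene that rose. They are written 5′ to 3′ on the gene's own strand, with matches in capitals. The letters searched on both strands were the E-box CANNTG, the MCAT element CATTCC, the estrogen-related receptor site AAGGTCA, the letters GATA of the GATA factors, the TATA box TATAAA, and the MEF2 site and CArG box by their usual consensus.
Ckmt2, chr13:91876886-91877135, minus strand: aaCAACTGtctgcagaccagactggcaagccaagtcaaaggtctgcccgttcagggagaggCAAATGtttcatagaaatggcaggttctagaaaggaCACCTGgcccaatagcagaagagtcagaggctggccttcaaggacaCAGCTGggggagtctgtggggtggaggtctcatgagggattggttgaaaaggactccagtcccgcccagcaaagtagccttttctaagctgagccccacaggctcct
Mb, chr15:77022788-77023037, minus strand: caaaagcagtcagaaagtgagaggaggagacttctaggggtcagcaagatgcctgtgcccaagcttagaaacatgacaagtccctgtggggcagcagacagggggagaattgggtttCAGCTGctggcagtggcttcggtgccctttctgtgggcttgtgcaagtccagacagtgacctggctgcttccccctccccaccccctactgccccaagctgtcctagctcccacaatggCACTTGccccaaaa
Ckb, chr12:111672339-111672588, minus strand: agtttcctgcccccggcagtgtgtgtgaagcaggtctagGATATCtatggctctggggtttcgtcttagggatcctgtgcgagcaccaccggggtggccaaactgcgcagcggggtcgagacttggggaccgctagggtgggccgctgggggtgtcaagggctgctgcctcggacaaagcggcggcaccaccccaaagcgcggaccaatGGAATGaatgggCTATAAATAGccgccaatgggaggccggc

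In the Ckmt2 window the capitals mark 4 E-boxes, and in the Mb window 2 E-boxes. E-boxes, the sites of basic helix-loop-helix factors such as the myogenic ones, were found in 66.2% of the 32851 mouse promoter windows of this length. The Ckb window held no E-box. Its capitals mark 2 overlapping GATA matches at positions -211 to -206, 1 MCAT match on the opposite strand at -41 to -36, and a run at -29 to -20 that is both a MEF2 match and, within it, the TATA box at -28 to -23. MEF2 matches were found in 2.92% of all windows, MCAT in 12.6%, the TATA box in 12.4% and GATA in 53.6%. No window of the 3 held the estrogen-related receptor site, found in 4.08% of all windows, or the CArG box, found in 1.47%. The Ckmt2 and Ckb windows lie outside every annotated gene, and the Mb window lies inside the Mb gene, in an intron of its longer transcripts. These are matches of letters in a short window and no binding was measured. RefSeq gives Mb 3 start sites; the windows of the other two, with 2 and 3 E-boxes and 1 GATA match in the former, run into annotated exons and are not printed. The Ckm window held 1 E-box and the Gatm window 1 E-box; both run into annotated exons and are not printed, and Slc6a8 was not matched in the promoter table.

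Each library held 13085370 to 16698987 reads assigned to genes, recovered as whole numbers from the deposited FPKM (fragments per unit of gene length and sequencing depth). Levels below are scaled FPKM, the deposited FPKM divided by a library factor between 0.979 and 1.03, and they are per deposited gene length, which a comparison between genes depends on. Differences are on the log2(scaled FPKM + 1) scale with the standard error (SE) of a limma fit over 13000 genes and all 12 libraries, and a gene was called at a Benjamini-Hochberg adjusted p under 0.05. The first principal component, holding 53.4% of the variance, placed the Sham libraries at -52.5 to -43.7 and the Model libraries at 26.3 to 36.2. LQ-40 replicate 1 lay at -20.6, apart from the other LQ-40 libraries at 16.0 and 34.3. Limma differences of LQ-40 that move by over 1.5 times or change a call without it are therefore also given without it. So are the LQ-40 differences in the Ckb share of all creatine kinase. All 12 cardiomyocyte marker genes of a list, chosen with earlier results of these data known, were detected in every group.

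**Figure D1:**
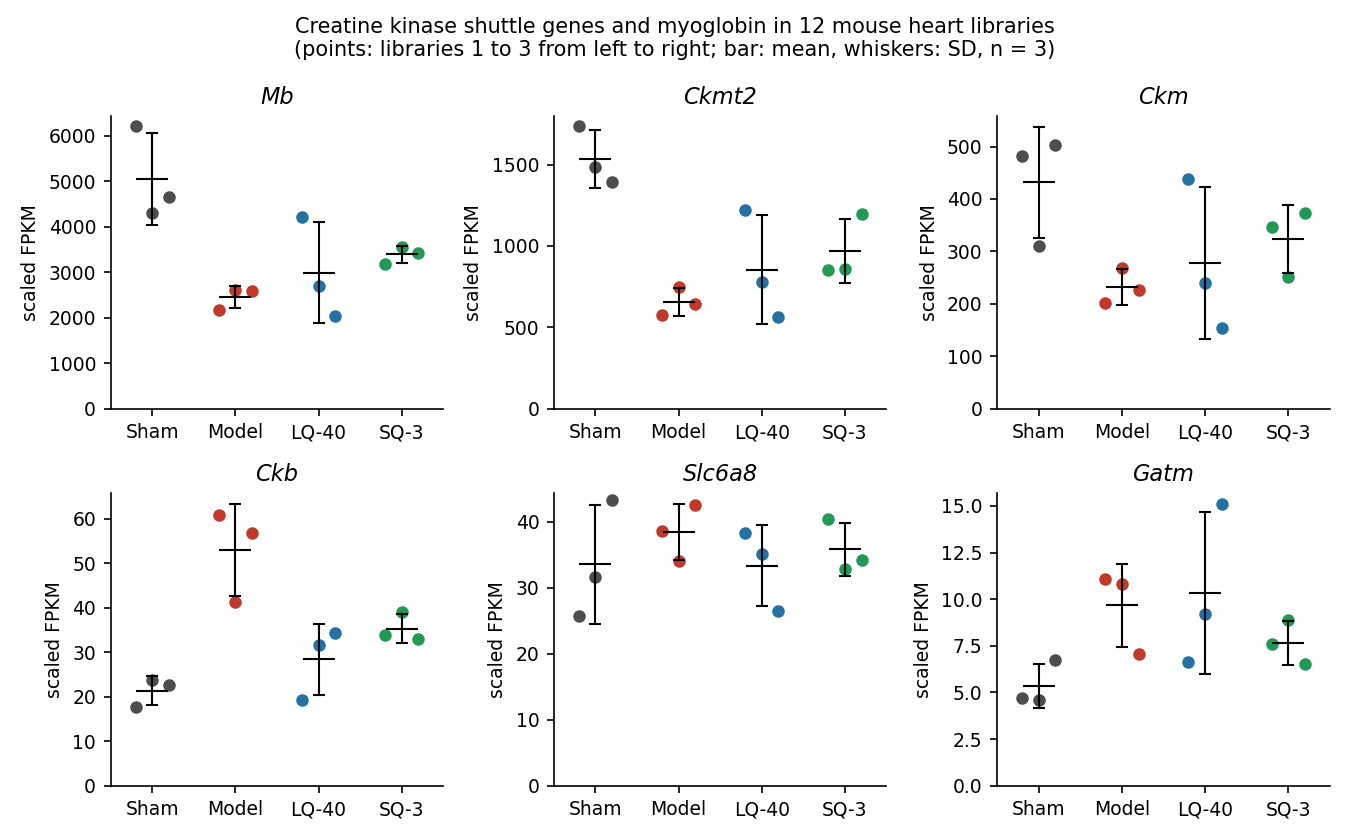
Scaled FPKM of the 6 genes (y axes, linear from 0) in each of the 12 libraries, by group on the x axis; points are libraries, bars the mean and whiskers the SD (n = 3). The Ckb libraries of Model, at 41.4 to 61.0, all lie above those of Sham, at 17.7 to 23.9, while Ckmt2 and Mb show the opposite order.

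In Sham hearts the levels ran from Mb, at 5055 ± 1013 scaled FPKM (SD, n = 3), through Ckmt2 at 1537 ± 178 and Ckm at 431 ± 106, to Slc6a8 at 33.5 ± 8.99, Ckb at 21.4 ± 3.25 and Gatm at 5.34 ± 1.19. No neighbours in that order overlapped in their libraries. Myoglobin took 0.623% to 0.791% of all gene reads of a Sham library and ranked 10 among the 13000 genes. Ckmt2 ranked 30 and Ckm 106, whereas Slc6a8 ranked 1261, Ckb 2021 and Gatm 6302. In Model hearts the upper 3 kept their order and Ckb, at 53.1 ± 10.4, had the higher mean beside Slc6a8 at 38.4 ± 4.22; these neighbours overlapped, since the lowest Ckb library (41.4) lay below the highest Slc6a8 library (42.5). Ckb ranked 728 among all genes in Model, and Gatm 4109. The order of Ckb and Slc6a8 depends on the length used. Per length of the longest principal transcript, an alternative chosen after seeing the data, their libraries overlapped in Sham (34.8 to 46.9 for Ckb and 40.4 to 68.1 for Slc6a8) and did not in Model (81.3 to 119.9 and 53.6 to 66.9).

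Between Model and Sham, 4 of the 6 genes were called, where limma called 38.9% of all tested genes in this comparison. Ckmt2 and Mb fell, a direction in which 18.0% of all genes were called, and Ckb and Gatm rose, against 20.9% of all genes. In 5 of the 6, every library of one group lay outside the range of the other, as did 55.5% of all tested genes. The median difference of the 6 was -0.33, beside 0.03 for all tested genes. With 6 genes, 4 called is not read as a departure from that background, and the values of each gene follow.

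Ckmt2, the mitochondrial kinase, stood at 1736, 1483 and 1393 scaled FPKM in the Sham libraries and at 575, 748 and 642 in the Model libraries. Every Model library was below every Sham library by a wide gap. The difference was -1.23 ± 0.28 (SE; limma adjusted p = 0.00674), or 2.35-fold lower. It passed the threshold in 14 of 14 alternative analyses, over which the limma adjusted p ranged from 0.00191 to 0.0397. Its size ran from -1.33 to -0.55 over them, and the smallest was under quantile normalization.

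Ckm, the muscle cytosolic enzyme, stood at 483, 309 and 502 scaled FPKM in Sham and at 201, 268 and 227 in Model. The groups did not overlap, but Sham replicate 2 lay well below the other Sham libraries and close to the highest Model library. The difference of -0.87 ± 0.34 (SE) did not pass (limma adjusted p = 0.0650). Without Sham replicate 2 it was -1.09 with a limma adjusted p of 0.0499, and with the other groups left out of the fit the adjusted p was 0.0186. Over all 14 alternatives the adjusted p ran from 0.0186 to 0.370.

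Ckb, the brain-type cytosolic enzyme, stood at 17.7, 23.9 and 22.6 scaled FPKM in Sham and at 61.0, 41.4 and 57.0 in Model. The lowest Model library held 1789 reads of Ckb and the highest Sham library 930, so counting error was small beside the gap. The difference was 1.26 ± 0.22 (SE; limma adjusted p = 0.00226), or 2.40-fold higher with a 95% interval of 1.72 to 3.35. It passed in 14 of 14 alternatives, with adjusted p between 0.00176 and 0.0126.

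Slc6a8, the creatine transporter, stood at 25.7, 31.6 and 43.3 scaled FPKM in Sham and at 38.6, 34.1 and 42.5 in Model. The libraries overlapped, and Sham replicate 3 was the highest of all 12. The difference of 0.22 ± 0.20 (SE) did not pass (limma adjusted p = 0.400), and its 95% interval ran from 0.862-fold to 1.57-fold. It passed in 0 of 14 alternatives.

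Gatm, of creatine synthesis, stood at 4.72, 4.58 and 6.71 scaled FPKM in Sham and at 11.1, 10.8 and 7.08 in Model. The lowest Model library was only slightly above the highest Sham library. The gene rose by 0.74 ± 0.26 (SE; limma adjusted p = 0.0416), or 1.67-fold, from 182 to 257 reads per library in Sham to 363 to 571 in Model. The call was near the threshold: it was kept in 7 of 14 alternatives, over which the adjusted p ran from 0.0217 to 0.131, and the losses included those on leaving out Sham replicate 1 (0.115), Sham replicate 2 (0.117), Model replicate 1 (0.131) or Model replicate 2 (0.115), under quantile normalization (0.0568) and without the filter on low genes (0.0941).

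Mb stood at 6208, 4307 and 4650 scaled FPKM in Sham and at 2174, 2599 and 2574 in Model. The 2 sets of libraries were well apart. Myoglobin fell by 1.03 ± 0.28 (SE; limma adjusted p = 0.0156), or 2.04-fold. The call was kept in 10 of 14 alternatives. It was lost on leaving out Sham replicate 1 (limma adjusted p = 0.0615) or Model replicate 1 (0.0604) and without the filter on low genes (0.418). It was also lost under quantile normalization, which gave -0.21 and a limma adjusted p of 0.456. That method gives genes of equal rank equal values. Mb ranked 10 in Sham and 11 in Model by group mean, and the role of rank in this loss was not tested.

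**Figure D2:**
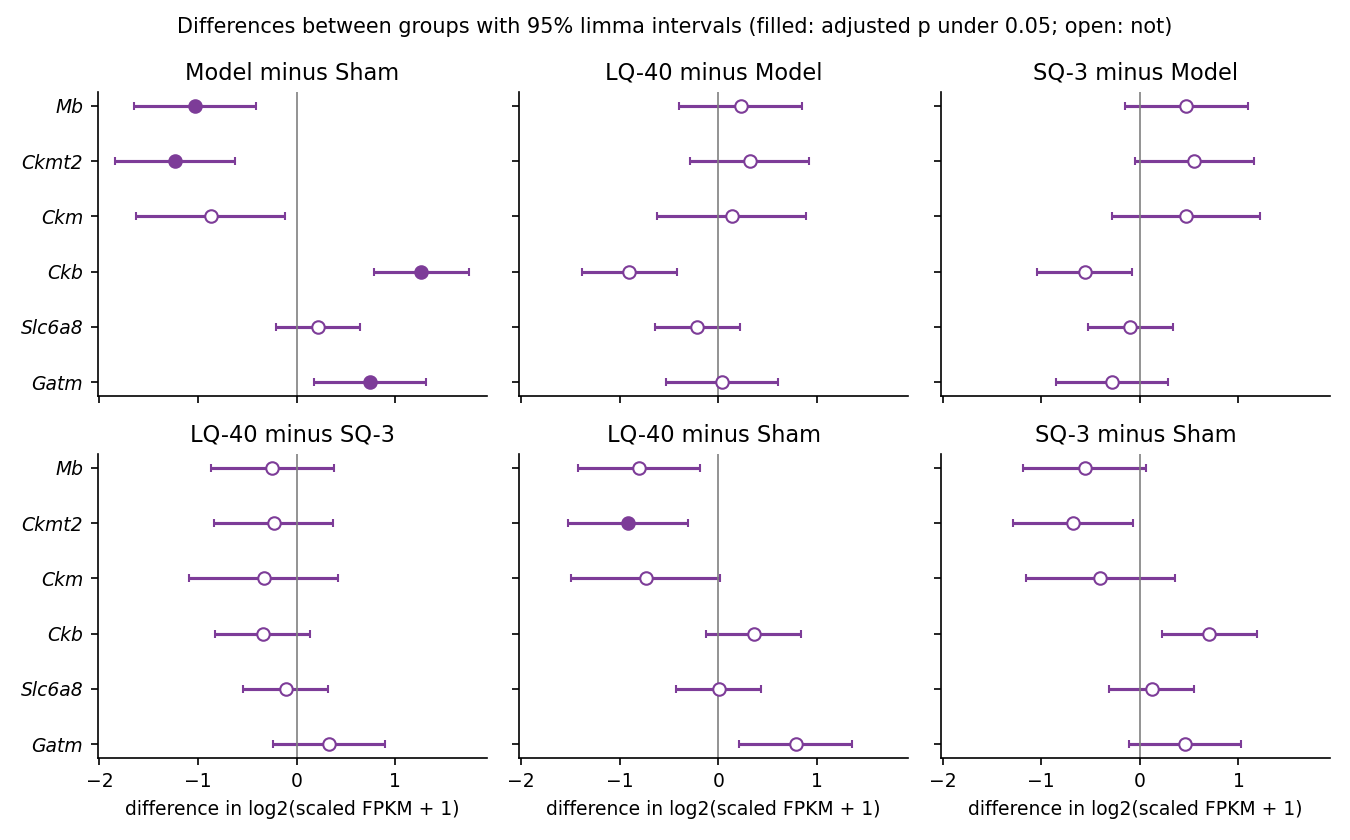
Differences between groups for the 6 genes, in log2(scaled FPKM + 1) on the x axis, with 95% limma intervals; filled points passed an adjusted p of 0.05 and open points did not. In Model minus Sham, Ckmt2 (-1.23) and Mb (-1.03) lie to the left and Ckb (1.26) and Gatm (0.74) to the right, and in LQ-40 minus SQ-3 every interval includes 0.

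The make-up of creatine kinase transcripts differed between the groups along with their amount. The summed scaled FPKM of Ckm, Ckmt2, Ckb and Ckmt1 was 1990 ± 220 in Sham and 941 ± 111 in Model (SD, n = 3 each), with no overlap. Ckmt2 was the most abundant in every library and made up 77.3% ± 4.51 of that sum in Sham and 69.5% ± 1.07 in Model. Ckm made up 21.6% ± 4.57 in Sham and 24.6% ± 0.685 in Model. Ckb made up 1.09% ± 0.271 in Sham and 5.78% ± 1.72 in Model. The Ckb share was higher by 4.68 percentage points (two-sided exact permutation p = 0.1, the smallest that 3 against 3 libraries can give), with no overlap between 0.791% to 1.31% in Sham and 3.91% to 7.28% in Model.

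Among the cytosolic enzymes alone, Ckb made up 3.54%, 7.16% and 4.31% of Ckm plus Ckb in the Sham libraries and 23.3%, 13.4% and 20.1% in the Model libraries. The lowest Model library was thus above the highest Sham library. Ckm exceeded Ckb by 20.8 ± 7.25 times in Sham and by 4.59 ± 1.68 times in Model (SD, n = 3). These shares depend on the gene length used. The deposited length of Ckb is 2895 bases and that of its longest principal transcript 1472, while for Ckm they are 2913 and 2742. With principal-transcript lengths, an alternative chosen after seeing the data, the Model minus Sham difference in the Ckb share of all creatine kinase was 8.47 percentage points in place of 4.68. Ckmt1, the ubiquitous mitochondrial type and not among the 6, was under the filter on low genes, with 1 to 5 reads per Sham library and 22 to 48 per Model library.

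**Figure D3:**
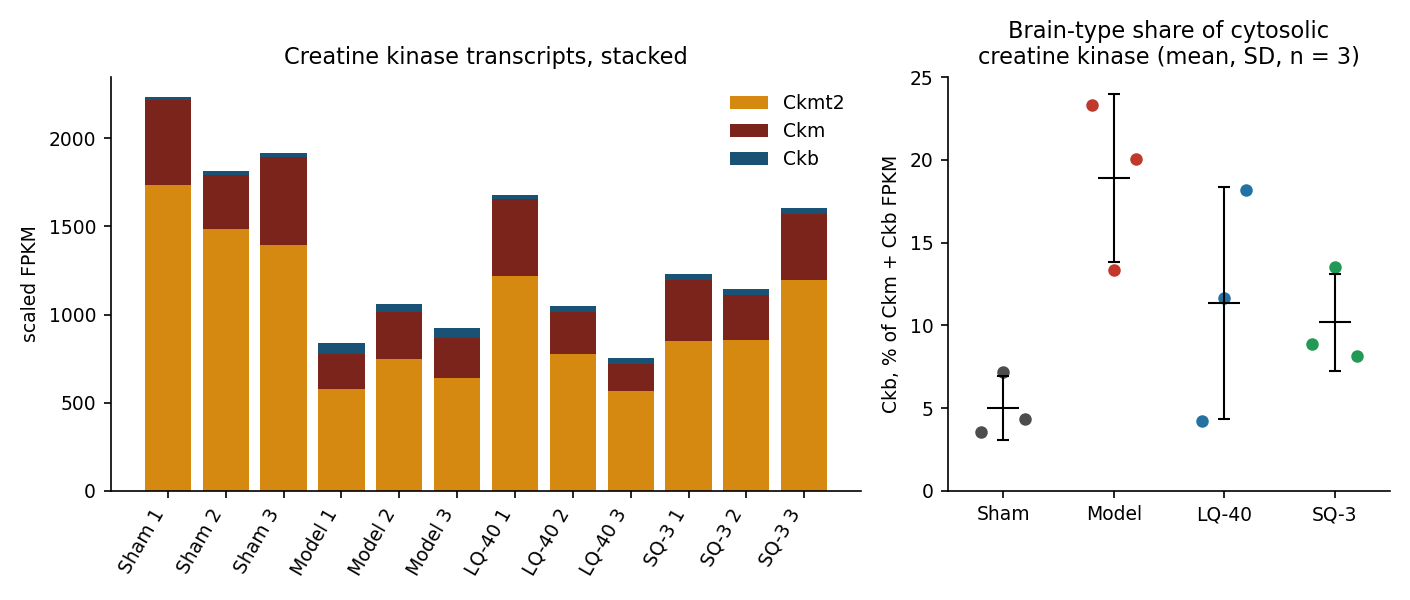
Left, scaled FPKM of Ckmt2, Ckm and Ckb stacked for each of the 12 libraries (y axis from 0); right, Ckb as a percent of Ckm plus Ckb FPKM per library (points), with mean and SD (n = 3). The 3 Sham bars are the tallest and that of LQ-40 replicate 3 is the shortest, and the Ckb share runs from 3.54% to 7.16% in Sham and from 13.4% to 23.3% in Model.

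Markers of some cell types also differed between Model and Sham. In that comparison 38.9% of all tested genes were called, 20.9% as higher and 18.0% as lower. The counts of the marker lists were not tested against those shares. Of the 12 cardiomyocyte markers 11 fell and 0 rose between Model and Sham (median -1.09), and their summed level ran from 21526 to 23910 scaled FPKM in Sham and from 10544 to 12453 in Model. All 8 fibroblast markers rose (median 2.54), from a summed 471 to 618 in Sham to 3317 to 3637 in Model. Of 8 macrophage markers 5 rose and 1 fell, with sums of 187 to 262 in Sham and 328 to 416 in Model. Of the 7 tested smooth muscle and pericyte markers 3 rose and 0 fell, with sums of 333 to 364 and 376 to 405. Of 7 endothelial markers 0 rose and 1 fell, with overlapping sums of 261 to 345 and 237 to 263. In bulk tissue, fewer cells of a type and less RNA per cell cannot be told apart, and the role of these shifts in the levels of the 6 genes was not tested.

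The other lists were smaller or mostly under the filter. Of the 4 atrial markers tested, of 7, 2 rose, with summed levels of 206 to 349 in Sham and 1227 to 2982 in Model and Bmp10 at 0 in both groups. Nppa held most of these sums, with means of 263 scaled FPKM in Sham and 1813 in Model, and Dkk3 stood at 2.31 and 64.1. Myl7, Myl4 and Sln stood at 0.526, 0.381 and 0.116 in Sham and at 0.541, 0.972 and 0.216 in Model. Of the 3 skeletal muscle markers tested, of 10, 1 rose, with sums of 615 to 971 and 981 to 1570 and the fast myosin Myh4 at 0 in Sham. Acta1 held nearly all of these sums, with means of 843 in Sham and 1180 in Model, and its libraries overlapped (613 to 969 and 959 to 1568). The highest of the others, Mylpf, stood at 0.827 and 2.84, also with overlap. Pvalb stood at 0.0249 and 2.15, without overlap, so the sums do not describe it. Of 4 tested Schwann and neural markers, of 8, 2 rose, with sums of 2.94 to 3.22 and 6.21 to 8.59. Of 3 tested adipocyte markers, of 7, 1 fell, with overlapping sums of 16.6 to 20.2 and 8.25 to 35.8. Cidea held most of the Sham sum, with means of 16.4 in Sham and 9.85 in Model. Among 5 tested erythroid genes 0 were called by limma and 2 had an unadjusted p under 0.05, with summed levels of 1420 to 2146 in Sham and 693 to 1344 in Model. The share of reads from the mitochondrial genome was 14.6% to 23.6% in Sham and 10.8% to 15.3% in Model, and its role was likewise not tested.

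The 6 genes were also set against the mean log2 level of the 12 cardiomyocyte markers in the same library. That mean was 9.64 to 9.82 in Sham and 8.53 to 8.78 in Model. Relative to it, Mb differed by 0.0013 between Model and Sham, at 2.57 ± 0.0258 in Model and 2.57 ± 0.201 in Sham (log2, SD, n = 3; two-sided exact permutation p = 1), and the libraries overlapped. Ckm differed by 0.16 (exact p = 0.8), with overlap. Ckmt2 was lower by a small step, -0.20, and its libraries did not overlap (exact p = 0.1, the smallest possible).

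The other members were higher relative to the markers, without overlap and each at an exact permutation p of 0.1: Ckb by 2.34, Gatm by 1.88 and Slc6a8 by 1.26 on the log2 scale. By arithmetic, a lower marker mean raises each of these values, as it would for any gene. The own log2 difference of Slc6a8, which did not pass the test, was 0.22, and the median of all tested genes was 0.03. The share of all tested genes without overlap on this relative scale was not computed. The lack of overlap, that of Ckmt2 included, is therefore not read as a result about these genes.

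**Figure D4:**
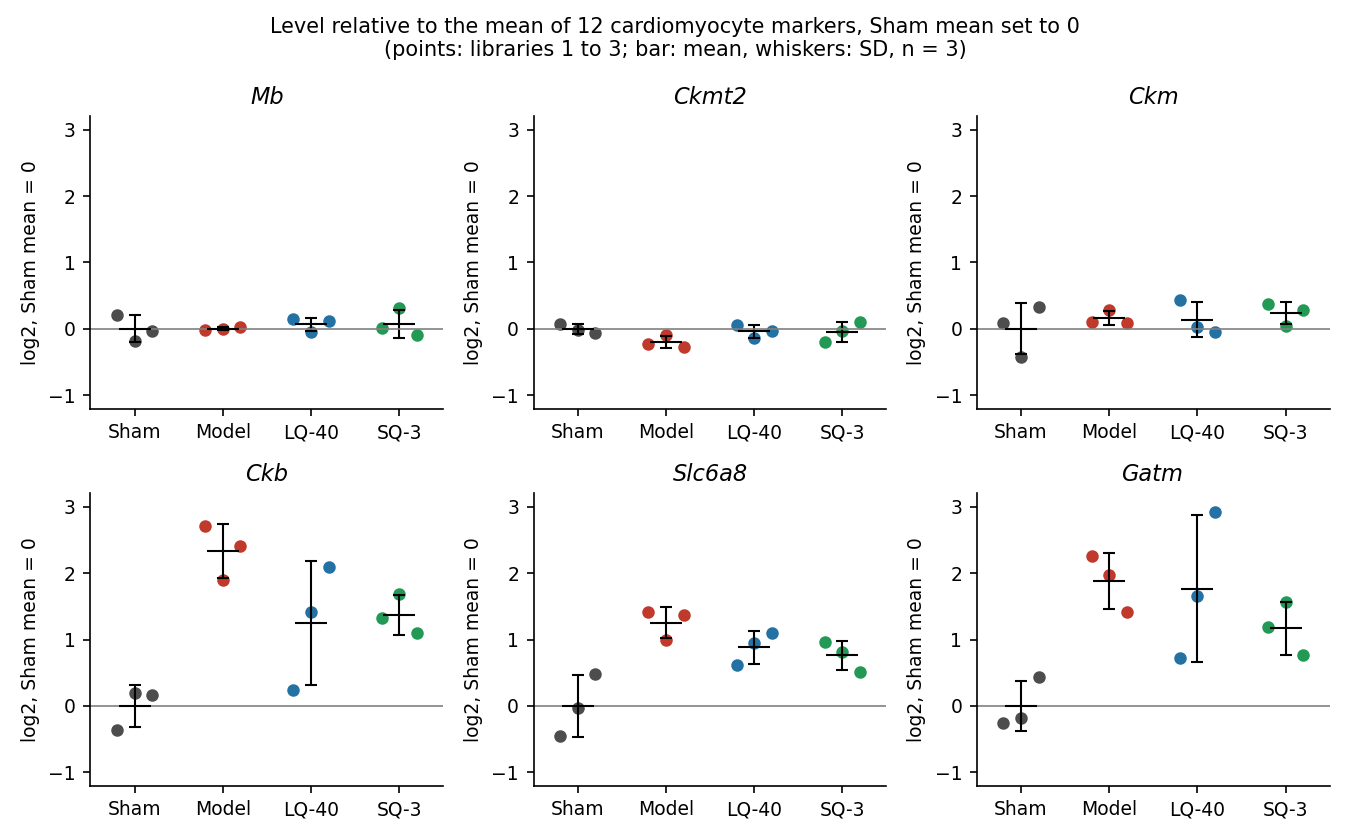
Log2 level of each gene minus the mean log2 level of 12 cardiomyocyte markers in the same library, with the Sham mean set to 0 (y axes); points are libraries, bars the mean and whiskers the SD (n = 3). The group means of Mb, Ckmt2 and Ckm lie near 0 in all groups. Those of Ckb, Slc6a8 and Gatm lie above 0 in Model, LQ-40 and SQ-3.

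Genes that work beside the shuttle were described from lists chosen with earlier results of these data known. Their calls are for Model minus Sham, where 38.9% of all tested genes were called, 20.9% as higher and 18.0% as lower. The counts of these lists were not tested against those shares. Among 8 other genes of creatine metabolism, 5 were tested, 1 rose and 1 fell (median 0.11, all genes 0.03). Slc16a9, a carrier of the monocarboxylate family, rose by 0.57 ± 0.17 (SE; limma adjusted p = 0.0213), and Prmt5, an arginine methyltransferase, fell by 0.34 ± 0.08 (limma adjusted p = 0.00985). Gamt, which completes creatine synthesis after Gatm, differed by 0.27 and was not called (limma adjusted p = 0.0867).

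Among 18 genes that move or interconvert adenine nucleotides and phosphate, 16 were tested, 2 rose and 6 fell (median -0.37). The mitochondrial phosphate carrier Slc25a3 fell by 1.07 ± 0.23 (SE; limma adjusted p = 0.00544). The outer membrane channels Vdac3 and Vdac2 fell by 0.97 and 0.67 (limma adjusted p = 0.00323 and 0.00785). The AMP deaminase Ampd2 rose by 0.80 (limma adjusted p = 0.00630). Nme3 was listed at 0 in all 4 groups.

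Among 6 genes for ATP-consuming motors and pumps 3 fell and 0 rose (median -0.65). The cardiac calcium pump Atp2a2 fell by 1.32 ± 0.36 (SE; limma adjusted p = 0.0152) and the adult myosin heavy chain Myh6 by 1.23 ± 0.33 (0.0143). The summed level of the 6 was 5699 to 7297 scaled FPKM in Sham and 2712 to 3006 in Model.

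Among 13 genes of globins and oxygen handling, 12 were tested, 3 rose and 1 fell (median -0.26). Cytoglobin (Cygb), the globin of fibroblasts and related cells, rose by 1.04 ± 0.33 (SE; limma adjusted p = 0.0289), a direction opposite to that of Mb. The reductase Cyb5r3 rose by 1.00 (limma adjusted p = 0.00386) and Hif1a, the oxygen-regulated transcription factor subunit, by 0.78 (0.0350), while Egln1, a prolyl hydroxylase that marks it for degradation, fell by 0.74 (0.0190). Of the regulators of muscle and energy genes, 21 of 23 were tested, 3 rose and 6 fell (median -0.21). Nfatc4 and Nfatc1, calcineurin-controlled factors, rose by 1.40 and 0.72 (limma adjusted p = 0.00122 and 0.00308), Trp53 rose by 0.77 (0.00216), and Mef2c, a muscle factor that binds the MEF2 site, fell by 0.43 (0.00741).

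**Figure D5:**
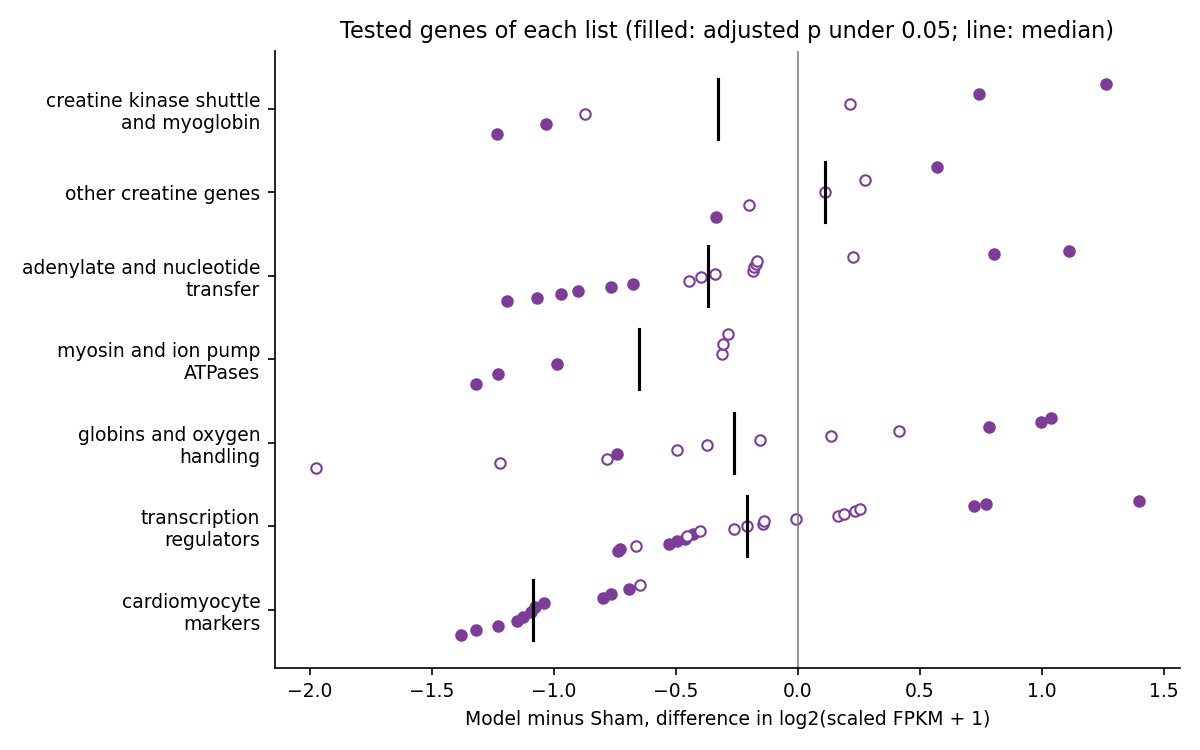
Model minus Sham differences in log2(scaled FPKM + 1) (x axis) for the tested genes of 7 lists (rows); each point is a gene, filled where the adjusted p was under 0.05, and the line is the list's median. The 6 genes of the shuttle and myoglobin spread from -1.23 to 1.26, whereas all 12 cardiomyocyte markers lie below 0.

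In LQ-40 hearts 0 of the 6 genes were called against Model by limma (1 at an unadjusted p under 0.05, beside 12.1% of all genes, and 0 by limma-voom on the recovered reads), where 0.669% of all genes were called. Ckb was the gene with the unadjusted p. It stood at 19.3, 31.5 and 34.4 scaled FPKM in the LQ-40 libraries, all below the lowest Model library at 41.4. The difference was -0.90 ± 0.22 (SE; limma adjusted p = 0.103), with 95% limits of 0.383-fold and 0.747-fold. Ckb was 1 of 6 genes without overlap, against 18.1% of all tested genes. Without LQ-40 replicate 1 its difference was -0.65 (limma adjusted p = 0.219).

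The other 5 genes overlapped with Model. Ckmt2 stood at 1221, 776 and 565 scaled FPKM in LQ-40, Ckm at 437, 239 and 155, and Mb at 4219, 2698 and 2045. In all 3, LQ-40 replicate 1 was the highest library of its group and lay far from the rest, and LQ-40 replicate 3 was below every Model library. Without replicate 1 the difference of Ckm from Model went from 0.14 to -0.26, that of Mb from 0.23 to -0.06 and that of Ckmt2 from 0.32 to 0.02. Gatm ran the other way, at 6.64, 9.21 and 15.1, and Slc6a8 stood at 38.3, 35.1 and 26.4. Without replicate 1 the difference of Gatm went from 0.04 to 0.29 and that of Slc6a8 from -0.21 to -0.32. The cardiomyocyte marker mean of these libraries was 9.33, 8.87 and 8.31 on the log2 scale, in the same order as Mb, Ckmt2 and Ckm, and its role was not tested.

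In SQ-3 hearts 0 of the 6 genes were called against Model by limma (1 at an unadjusted p under 0.05, beside 14.2% of all genes, and 0 by limma-voom), where 0.346% of all genes were called. Ckb stood at 33.9, 39.1 and 33.0 scaled FPKM, below all Model libraries, with a difference of -0.56 ± 0.22 (SE; limma adjusted p = 0.301). Ckmt2 stood at 850, 858 and 1196, and Mb at 3186, 3557 and 3428, both above all Model libraries. Their differences were 0.55 ± 0.28 (SE; limma adjusted p = 0.380) and 0.47 ± 0.28 (0.439). These 3 of 6 genes did not overlap with Model, against 26.4% of all tested genes. Ckm at 347, 250 and 373, Slc6a8 at 40.4, 32.8 and 34.2 and Gatm at 7.58, 8.88 and 6.51 overlapped with Model. Both compound groups were set against the same 3 Model libraries, so their differences are not independent.

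The Ckb share of all creatine kinase FPKM was 2.90% ± 1.71 in LQ-40 and 2.74% ± 0.676 in SQ-3 (SD, n = 3 each). The difference from Model was -2.88 percentage points in LQ-40 (two-sided exact permutation p = 0.2, with overlap), or -2.00 without LQ-40 replicate 1 (exact p = 0.4), and -3.04 in SQ-3 (exact p = 0.1, the smallest possible, without overlap). Of the cytosolic enzymes alone Ckb made up 4.22%, 11.6% and 18.2% in LQ-40, a spread that covers most of the range between Sham and Model, and 8.89%, 13.5% and 8.12% in SQ-3. On that measure both compound groups overlapped with Model, with differences of -7.56 percentage points in LQ-40 and -8.73 in SQ-3 (two-sided exact permutation p = 0.2 for each). The 4.22% is that of LQ-40 replicate 1, and the -7.56 was not recomputed without that library.

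LQ-40 and SQ-3 were compared with each other as 1 pair, with doses and times not given in the sources used here. None of the 6 genes was called (0 by limma, 0 at an unadjusted p under 0.05 and 0 by limma-voom), where 0.00% of the 13000 genes were called and 394 had an unadjusted p under 0.05. All 6 overlapped, while 6.12% of all tested genes did not. The 95% intervals of the LQ-40 minus SQ-3 difference were wide, from -0.82 to 0.14 on the log2 scale for Ckb, from -0.84 to 0.37 for Ckmt2, from -1.09 to 0.42 for Ckm, from -0.87 to 0.38 for Mb, from -0.24 to 0.90 for Gatm and from -0.54 to 0.32 for Slc6a8. Differences within these limits could not be resolved with 3 libraries a group. The Ckb share differed by 0.165 percentage points (two-sided exact permutation p = 0.9). Without LQ-40 replicate 1, 0 of the 6 genes were called by limma, where 0% of all genes were called. The differences moved from -0.33 to -0.73 for Ckm, from -0.23 to -0.53 for Ckmt2 and from -0.25 to -0.53 for Mb. They moved from 0.33 to 0.58 for Gatm, from -0.34 to -0.09 for Ckb and from -0.11 to -0.22 for Slc6a8. That of the Ckb share moved to 1.04 percentage points.

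Against Sham, 1 of the 6 genes was called in LQ-40, where 15.8% of all genes were called. Ckmt2 fell by 0.91 ± 0.28 (SE; limma adjusted p = 0.0465). Ckmt2 and Mb, 2 of 6, did not overlap with Sham, against 33.2% of all genes. The count rested on single libraries. Without LQ-40 replicate 1, 5 of 6 genes were called (33.6% of all genes): Ckmt2 at -1.21 (limma adjusted p = 0.00374), Ckm at -1.13 (0.0124), Mb at -1.09 (0.00650), Ckb at 0.61 (0.0273) and Gatm at 1.03 (0.00987). Slc6a8, not called, went from 0.0056 to -0.10. Without any other LQ-40 library or any Sham library in turn, 0 were called, where 3.14% to 8.78% of all genes were called. The limma adjusted p for Ckmt2 then lay between 0.0752 and 0.165. The Ckmt2 call was also lost with the 2 groups alone in the fit (limma adjusted p = 0.150), under quantile normalization (0.0556) and without the filter on low genes (0.169). Of all genes 1.77%, 11% and 2.67% were called in these 3 fits.

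In SQ-3 0 of the 6 genes were called against Sham by limma (2 at an unadjusted p under 0.05, beside 28.0% of all genes, and 0 by limma-voom), where 6.68% of all genes were called. Ckmt2, Ckb and Mb, 3 of 6, did not overlap with Sham, against 36.6% of all genes. The same 3 also did not overlap with Model, and their SQ-3 libraries lay between those of Sham and Model. Ckb stood at 33.0 to 39.1 scaled FPKM between 23.9 and 41.4, Ckmt2 at 850 to 1196 between 748 and 1393, and Mb at 3186 to 3557 between 2599 and 4307. None of the 3 was called against either group in the fit over all 12 libraries. The share of all genes that lay between both groups in this way was not computed, so this position is not read as particular to these 3. Ckb differed from Sham by 0.70 ± 0.22 (SE; limma adjusted p = 0.0781), a value that passed with the 2 groups alone in the fit (0.0293). Ckmt2 differed by -0.68 (limma adjusted p = 0.142) and Mb by -0.56 (0.217).

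Across the 12 libraries Ckmt2 and Mb varied together (Pearson r = 0.96), as did Ckm with each of them (0.89 with both), and Ckb varied against them (-0.86 with Ckmt2 and -0.83 with Mb). Gatm also ran against Ckmt2 (-0.87) and Mb (-0.86). Slc6a8 followed none of these, with r between -0.17 and 0.33 to the other 5. With group means removed, Ckmt2 with Mb gave 0.87, Ckb with Ckmt2 -0.87 and Gatm with Ckmt2 -0.77. These are descriptions over libraries that share tissue make-up and, in LQ-40, 1 library that stands apart. Without that library Ckmt2 with Mb gave 0.96, Ckb with Ckmt2 -0.86 and Gatm with Ckmt2 -0.87, and Slc6a8 lay between -0.21 and 0.45.

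The genes most like each member were sought among 3768 protein-coding genes that have names and average 10 scaled FPKM or more, by Pearson r over the 12 libraries. For Ckmt2 they were Atp5f1 (0.99) and Atp5g3 (0.99), subunits of the mitochondrial ATP synthase, and Suclg1 (0.99), of succinyl-CoA ligase in the citric acid cycle. For Mb they were Myoz2 (0.99), a Z-disc protein that is also on the cardiomyocyte list, Grpel1 (0.99), of mitochondrial protein import, and the ATP synthase subunit Atp5o (0.99). For Ckm they were Aes (0.98), Tecr (0.97), of long-chain fatty acid elongation, and Ankrd40 (0.97).

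The nearest genes to Ckb were Chpf (0.97), of chondroitin sulfate synthesis, Wdr1 (0.96), of actin filament turnover, and Gpr153 (0.96). For Gatm they were Metrnl (0.96), a secreted protein, the lysosomal protease gene Lgmn (0.95) and Cdc42se1 (0.94). The likeness was lower for Slc6a8, with Vps26b (0.90), of the retromer, Sh2b3 (0.88) and Mtss1l (0.84). With group means removed the values for Chpf with Ckb and Vps26b with Slc6a8 were 0.98 and 0.96, and that for Wdr1 with Ckb was 0.82.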

How the data were processed

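Poly(A) messenger RNA of 12 mouse heart libraries was sequenced. Per the submitters' processing notes, fastp, HISAT2 2.0.5 and featureCounts 1.5.0-p3 were used, with the mouse build mm10; strand settings were not given there. The authors deposited FPKM values with a gene length per gene. FPKM times that length, divided by a unit found for each library, gave whole reads (within 0.02) for 100% of values, so depth is known. The number of reads that the deposited FPKM divide by was 0.827 to 1.16 times the reads recovered (0.827 to 0.942 in Sham, 1.05 to 1.12 in Model), so they are not per recovered depth. No 2 libraries of a group were the same within counting noise (chi-square per degree of freedom 20.1 to 156).

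FPKM were scaled by medians of ratios over 10422 genes with at least 1 FPKM in all 12 libraries. Genes with at least 1 FPKM in 3 or more libraries (13000) were tested in R 4.3.3 with limma 3.58.1 (trend) on log2(scaled FPKM + 1), with all 12 libraries in 1 fit and Benjamini-Hochberg adjustment over all tested genes. The filter was passed by all 6 genes in every group. Single values (isoform shares, levels relative to markers) used two-sided exact permutation tests. The test was tried on simulated data, where it found nearly all of the larger changes set and missed many of the smaller ones. A gene that was not called may therefore still differ. The simulation gave all genes the same extra spread and changed few of them, so its recovery need not hold for these data. Its pass criterion was limited to the larger changes after a first run had failed a criterion over all changes. Intervals for reads cover counting error only. Alternatives were other scalings, pseudocounts and filters, limma-voom on the recovered reads, a replicate block, the 2 groups alone and leaving out each library.

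The members, lists and naming rule were chosen with earlier results of these data known. The rule names the 6 genes, up to 4 called genes per list by adjusted p in Model minus Sham, and the 3 genes most like each member. A gene that the rule names is not reported here. Gamt and Nme3 were named after their values were seen. Mouse gene coordinates were the same as in GENCODE M21 for 98.1% of genes, and promoter sequences are RefSeq's, build GRCm38.p6. Rat cell libraries (1 per condition) were deposited as FPKM and enter no test.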

Additional observations from a re-analysis of the deposited data

Results flagged for a closer look

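The series also holds 2 libraries of primary rat cells (macrophages grown from bone marrow, heart fibroblasts and cardiomyocytes), 1 from flat culture (2D) and 1 from a 3D coculture, with no replicate and no test. Reads of the 6 genes there were above the limit of 3 reads that a count of 0 allows for Ckm in 2D (10 reads, against 0 in 3D), Ckmt2 in 3D (4, against 3 in 2D), Mb in 3D (4, against 1 in 2D), Ckb (219 in 2D and 152 in 3D), Slc6a8 (8711 and 5963) and Gatm (129 and 71). Slc6a8 was the most abundant of the 6, at 165 FPKM in 2D and 130 in 3D, unlike the mouse heart, where Mb was. The ratio of 3D to 2D, per read of the library, was 0.762 for Slc6a8 (95% interval for counting error 0.737 to 0.788), 0.773 for Ckb (0.624 to 0.955) and 0.613 for Gatm (0.452 to 0.825), values that compare 2 libraries and not 2 conditions. Of the 12 cardiomyocyte markers 11 were found in the rat table and 7 of these were under 1 FPKM in both libraries.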

How the results depend on the processing

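The alternatives left 461 of 504 member differences with their direction and side of the threshold; 20 lost the call, 7 gained it and 16, none of them called, changed sign. The number of members called in Model minus Sham was 4, with the share of all genes called at 38.9%. It was 5 with the 2 groups alone (41.6% of all genes) and 2 under quantile normalization (36%). Without the filter on low genes it was 2 (15%), and with 1 library left out 2 to 4 (25.3% to 34.6%). In LQ-40 minus Sham it was 1 (15.8% of all genes). It was 0 under quantile normalization (11%), without the filter (2.67%), with the replicate block (10.8%) or with the 2 groups alone (1.77%). With 1 library left out it was 0 to 5 (3.14% to 33.6%). In SQ-3 minus Sham it was 0 (6.68% of all genes), and 1 with the 2 groups alone (9.94%). Sign changes away from left-out libraries were Ckm in LQ-40 minus Model (-0.022 under quantile normalization), Slc6a8 in LQ-40 minus Sham (-0.047 on FPKM as deposited, -0.025 by limma-voom), Mb in SQ-3 minus Sham (0.0099 under quantile normalization) and Mb relative to cardiomyocyte markers (-0.0054 with a pseudocount of 1). With 1 library left out, differences from Model in LQ-40 ran from -0.26 to 0.49 for Ckm, -0.25 to 0.29 for Gatm and -0.056 to 0.47 for Mb; LQ-40 minus SQ-3 from -0.73 to 0.021 for Ckm, -0.53 to 0.027 for Ckmt2, -0.22 to 0.040 for Slc6a8 and -0.66 to 1.04 percentage points for the Ckb share; Slc6a8 minus Sham from -0.17 to 0.20 in LQ-40 and -0.053 to 0.31 in SQ-3; and, relative to the markers, Model minus Sham from -0.050 to 0.32 for Ckm and -0.092 to 0.11 for Mb. Apart from the loss of a library or of genes tested, the cause was not tested. With the replicate block, Model minus Sham had 3 members called, beside 35.2% of all genes (Gatm limma adjusted p = 0.0641). LQ-40 minus Sham had 0 (Ckmt2 limma adjusted p = 0.0784). Same-numbered Model and Sham libraries did not deviate together (r = -0.17, -0.10 and -0.06); same-numbered LQ-40 and Sham libraries gave 0.15, 0.08 and 0.12, not all over 0.1, so the libraries share only a number and are not treated as paired. Depth limits Gatm most, at 182 to 730 reads per library.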
